A study of Mus musculus with 10 samples.

Results

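Egr1, Egr2, Egr3, Nr4a1, Nr4a2, Nr4a3, Ier2, Ier3, Btg2 and Klf4 are genes of the immediate early class, and their transcripts were followed in corneal endothelium with and without Slc4a11. They were taken by symbol from the deposited count table, 10 of its 55450 genes, and each of the 10 had enough counts to be tested. The samples were peeled sheets of corneal endothelium, a monolayer lining the inner cornea whose pumping keeps the stroma clear, from C57BL/6 mice at 12 weeks of age. Both copies of Slc4a11, a membrane transporter gene of this layer, were intact in the WT group (Slc4a11+/+) and absent in the KO group (Slc4a11-/-). There were 5 libraries in each group, named here by genotype and number, and no treatment is given for either. Each library was a pool of 6 peelings taken from 3 animals, and replicate error therefore means variation among pools. Whether the deletion is present in every cell of the animal, as in a germline line, is not stated by the labels.

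Immediate early genes are transcribed within minutes of a stimulus by means of transcription factors already present in the cell, and their messages are short-lived. Growth factors, calcium and stress reach them through the ERK kinases, the serum response factor SRF and the cyclic AMP response element binding protein CREB. Egr1, Egr2 and Egr3 encode zinc finger transcription factors, and Nr4a1, Nr4a2 and Nr4a3 encode nuclear receptors whose activity follows their amount and not a bound ligand. Btg2 encodes an antiproliferative protein that recruits the deadenylase which shortens messenger RNA tails, and it is a known target of p53. Klf4 encodes a transcription factor of barrier epithelia, and Ier2 and Ier3 encode small proteins induced by growth factors and stress.

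Slc4a11 checked the labels: in CPM (read counts scaled to the library total, with TMM factors), WT libraries held 3489 to 4357 and KO libraries 70.1 to 114. Total counts ran from 36026193 to 51008996 per library. Markers of corneal endothelium summed to 13908 to 15138 CPM in WT and 11715 to 15016 CPM in KO. Col8a2 was a large part of this sum, with means of 7374 CPM in WT and 7619 CPM in KO. Of the 10 markers 0 rose and 1 fell, Atp1b1 (log2 fold change -0.32, edgeR adjusted p = 0.016). Markers of stromal keratocytes, which lie next to the layer, were abundant in every library (61979 to 95226 CPM summed over 12 genes). Of these 12 genes, 1 rose and 2 fell in KO. Markers of corneal epithelium ran from 69.7 to 203 CPM in WT and from 76.6 to 3550 CPM in KO, with KO 1, KO 2 and KO 5 above all other libraries. KO 4, at 241 CPM, was just above the WT maximum. Results are therefore also given from a fit that keeps KO 3 and KO 4 and drops the other KO libraries. Smooth muscle markers went the other way, at 90.3 to 102 CPM in WT and 61.0 to 79.0 CPM in KO, nearly all from Acta2 and Myh11. Myh11 fell (log2 fold change -0.60, edgeR adjusted p = 0.015) and Acta2 did not pass (-0.23, edgeR adjusted p = 0.096). Des and Cnn1 were too low to be tested. Markers of blood vessel endothelium summed to 101 to 152 CPM in WT and 80.6 to 103 CPM in KO. Kdr made up most of this sum, with means of 121 CPM in WT and 84.2 CPM in KO. It was the 1 of 5 tested that fell (-0.52, edgeR adjusted p = 0.0058), while the other 4 were above 0 and did not pass. The vessel sum therefore follows Kdr and not the other markers of its list. Schwann cell markers were higher in KO and are given beside Egr2. The part of these shifts in the values of the 10 genes was not tested, other than by the fits named. In bulk samples, more cells of a type and more RNA per cell cannot be told apart.

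Btg2 rose in KO, and none of the other 9 genes passed the test in either direction. With edgeR, 1 of the 10 genes was higher and 0 were lower at a Benjamini-Hochberg adjusted p under 0.05, taken over the 17729 genes tested. Over all tested genes 7.59% were higher and 7.73% lower, so the count among the 10 is near the background. These shares are 1346 and 1370 genes, and scaling to total counts alone gave 1555 and 1054. At an unadjusted edgeR p under 0.05, 3 of the 10 were higher and 1 was lower, beside 2732 and 2783 of the 17729 genes tested. DESeq2 and limma-voom called the same gene and no other of the 10. The median log2 fold change of the 10 genes was 0.28, beside 0.00 over all tested genes. Values above 0 were found for 8 of the 10 genes, and for 8956 of the 17729 tested. With only KO 3 and KO 4 kept, the median of the 10 was 0.02, and with 1 library left out it ran from 0.17 (without KO 2) to 0.46 (without WT 4). The exons of the 10 genes overlap those of no other annotated gene on either strand.

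**Figure D1:**
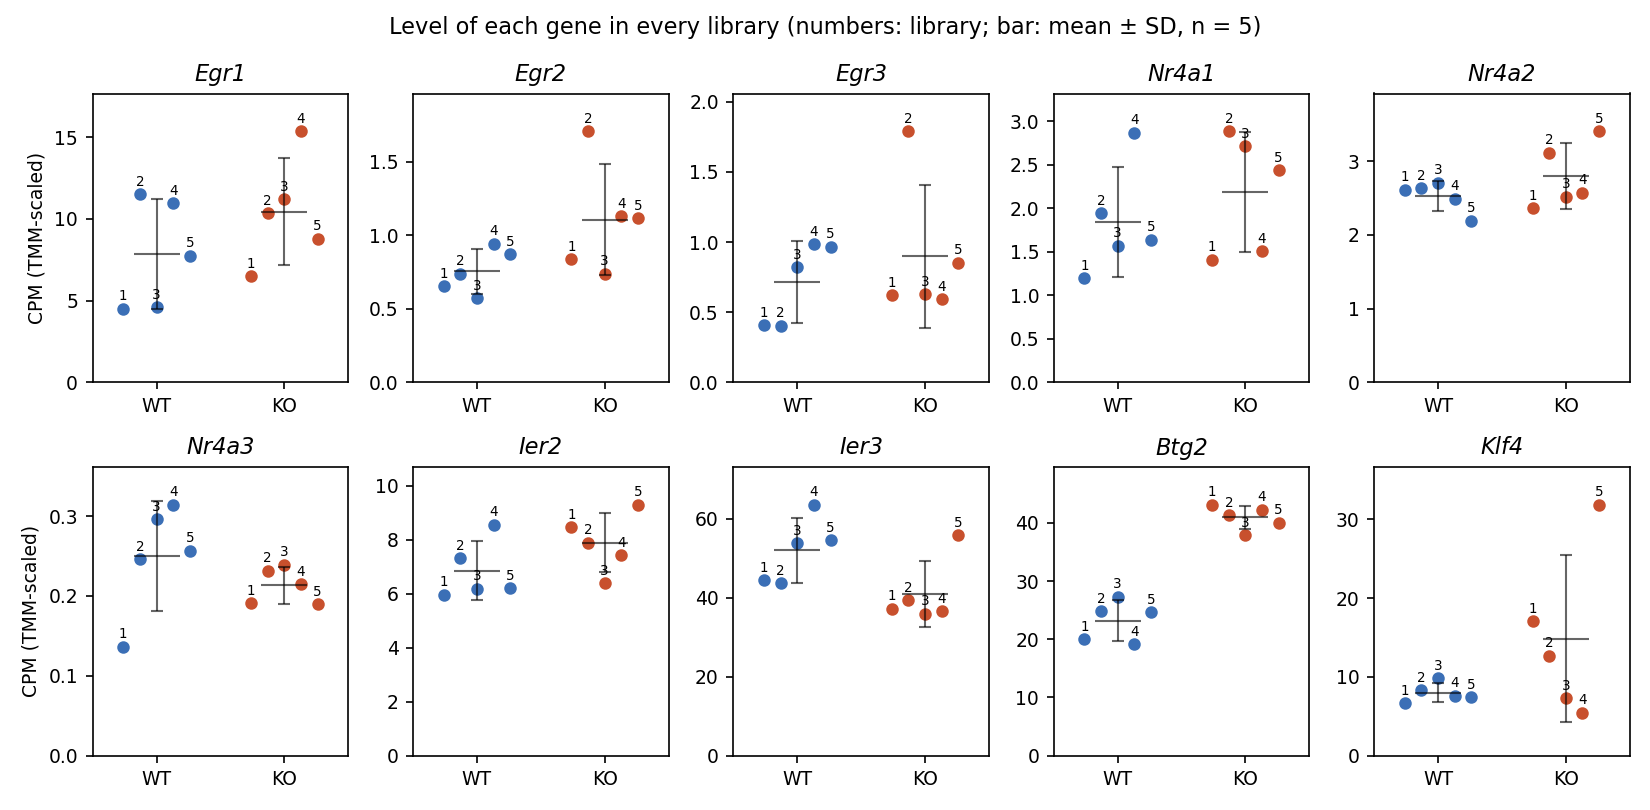
Level of each of the 10 genes in every library, in CPM on linear axes that start at 0. Points carry the library number, and bars give the mean and SD of 5 libraries. Btg2 is the gene whose KO points (37.9 to 43.1 CPM) all lie above its WT points (19.1 to 27.3 CPM).

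Btg2 (ENSMUSG00000020423.6) lies on the minus strand of chromosome 1, chr1:134075170-134079120 in GRCm38. The WT libraries 1 to 5 held 20.1, 24.8, 27.3, 19.1 and 24.7 CPM. The KO libraries 1 to 5 held 43.1, 41.3, 37.9, 42.3 and 40.05 CPM. All KO libraries lay above all WT libraries, which holds for 5.88% of tested genes, while 6.16% had all KO libraries below. The mean rose from 23.2 ± 3.48 to 40.9 ± 2.03 CPM (SD, n = 5 each), a 1.76-fold difference. The log2 fold change was 0.82 (SE 0.09, 95% interval 0.62 to 1.02, edgeR adjusted p = 1.7e-04). The rise was as large without the libraries rich in epithelial transcripts: KO 3 and KO 4 alone gave 0.79 (edgeR adjusted p = 0.0054). The KO libraries also spread little, with a coefficient of variation of 4.97% against 14.97% in WT.

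RefSeq start sites were matched by symbol for 7 of the 10 genes, with 11 windows on GRCm38.p6. The 250 bases before 4 of these starts are shown because Btg2 is the gene that rose, while Nr4a1, Nr4a2 and Egr2 are textbook targets of CREB or SRF that did not pass. The windows are chr1:134079156-134079405 on the minus strand for Btg2, chr15:101266596-101266845 on the plus strand for Nr4a1, chr2:57124004-57124253 on the minus strand for Nr4a2 and chr10:67537619-67537868 on the plus strand for Egr2. Letters run 5′ to 3′ along the gene, and capitals mark the half-site of the cyclic AMP response element (TGACG on either strand) and the CArG box bound by SRF.
Btg2: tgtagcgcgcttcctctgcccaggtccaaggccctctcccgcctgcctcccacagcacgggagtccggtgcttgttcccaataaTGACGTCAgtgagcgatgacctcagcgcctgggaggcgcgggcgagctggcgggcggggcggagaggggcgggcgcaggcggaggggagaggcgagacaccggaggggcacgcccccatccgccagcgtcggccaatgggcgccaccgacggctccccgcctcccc
Nr4a1: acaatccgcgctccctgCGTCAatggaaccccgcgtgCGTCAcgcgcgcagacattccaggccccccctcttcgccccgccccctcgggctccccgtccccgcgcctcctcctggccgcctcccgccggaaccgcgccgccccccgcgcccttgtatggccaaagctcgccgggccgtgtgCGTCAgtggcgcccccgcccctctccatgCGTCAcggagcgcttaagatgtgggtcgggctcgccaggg
Nr4a2: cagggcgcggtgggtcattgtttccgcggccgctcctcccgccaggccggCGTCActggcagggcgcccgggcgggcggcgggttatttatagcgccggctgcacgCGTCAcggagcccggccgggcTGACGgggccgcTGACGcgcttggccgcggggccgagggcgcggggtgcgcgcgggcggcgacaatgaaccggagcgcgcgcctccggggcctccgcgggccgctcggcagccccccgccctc
Egr2: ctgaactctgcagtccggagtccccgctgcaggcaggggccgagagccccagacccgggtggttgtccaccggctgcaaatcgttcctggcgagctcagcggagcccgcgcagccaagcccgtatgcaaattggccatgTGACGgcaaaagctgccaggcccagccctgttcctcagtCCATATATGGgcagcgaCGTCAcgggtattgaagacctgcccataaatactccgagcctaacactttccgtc
The Btg2 window held the full palindromic element TGACGTCA, which counts as overlapping half-sites on both strands and begins 166 bases before the start. It was in 1 of the 11 windows, and in 1.55% of the 32851 windows of that length in the RefSeq table. The half-site was in 8 of the 11 windows and in 17.8% of all windows, which were not matched for base content. By gene it was in windows of 6 of the 7, all but Ier3. The Nr4a1 and Nr4a2 windows held 4 half-sites each, the nearest 40 and 111 bases before the start. A CArG box was in 4 of the 5 overlapping or neighbouring windows of Egr2, in none of the other 6 genes examined and in 1.47% of all windows. In the window shown it begins 72 bases before the start. Whether Egr1, Egr3 or Ier2 hold a CArG box or a half-site was not examined. These matches describe letters in the windows and were not compared with any measure of binding.

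Per length of transcript, the 10 genes covered a wide range. Ier3 was the most abundant in WT at 46.0 ± 7.28 RPKM (CPM divided by exon length in kilobases, SD, n = 5). Btg2 followed at 8.46 ± 1.27, Ier2 at 4.51 ± 0.719, Klf4 at 2.62 ± 0.402 and Egr1 at 1.75 ± 0.751 RPKM. Nr4a2 and Nr4a1 stood at 0.623 ± 0.0503 and 0.526 ± 0.180 RPKM, Egr2 and Egr3 at 0.222 ± 0.0449 and 0.163 ± 0.0661 RPKM, and Nr4a3 last at 0.0417 ± 0.0116 RPKM. In WT the libraries of neighbours in this order overlapped for Klf4 and Egr1, for Nr4a2 and Nr4a1, and for Egr2 and Egr3. The order of the means was the same in KO, where Ier2 with Klf4 and Nr4a1 with Egr2 also overlapped. Nr4a3 rested on 5 to 15 counts per library and Egr2 on 24 to 81, while Ier3 had at least 1361.

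The Egr transcription factors did not pass the test. Egr1 held 4.498, 11.5, 4.58, 10.98 and 7.74 CPM in WT 1 to 5. In KO 1 to 5 it held 6.51, 10.3, 11.2, 15.4 and 8.79 CPM. KO 4 was the highest of the 10 libraries and WT 1 and WT 3 the lowest, and the groups overlapped. Its log2 fold change was 0.40 (SE 0.29, 95% interval -0.23 to 1.04, edgeR adjusted p = 0.37). It was 0.23 without KO 4, and 0.26 without either WT 1 or WT 3.

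Egr2, which also drives myelination in Schwann cells, held 0.654, 0.738, 0.569, 0.943 and 0.869 CPM in WT 1 to 5. In KO 1 to 5 it held 0.835, 1.71, 0.739, 1.13 and 1.11 CPM, and KO 2, KO 4 and KO 5 were above the WT maximum. The log2 fold change was 0.54 (SE 0.24, 95% interval 0.02 to 1.07), which did not pass (edgeR adjusted p = 0.14), and without KO 2 it was 0.33. Transcripts of Schwann cells, the glia of peripheral nerves, were higher in KO too. Their 5 markers summed to 56.4 to 64.4 CPM in WT and 78.8 to 113 CPM in KO, so that the groups did not overlap. Mbp made up most of each sum, with means of 43.4 CPM in WT and 54.5 CPM in KO, and 4 of the 5 markers rose. Mbp and Mag, which encode myelin proteins, rose, and Sox10 was at 0.49 on the log2 scale (edgeR adjusted p = 0.16). Mag had a WT mean of 0.325 ± 0.115 CPM and a KO mean of 0.892 ± 0.318 CPM (SD, n = 5 each; edgeR adjusted p = 0.0091). KO 2 was highest for Egr2 and for the Schwann cell marker sum, and WT 3 was lowest for both. The same holds for the summed markers of macrophages and other leukocytes, at 520 CPM in KO 2 and 260 CPM in WT 3. Because the Schwann cell marker sums separate the genotypes, their part in the Egr2 values cannot be told apart from genotype. The part of leukocyte transcripts was not tested.

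Egr3 held 0.409, 0.402, 0.820, 0.985 and 0.968 CPM in WT 1 to 5, and 0.620, 1.79, 0.630, 0.590 and 0.853 CPM in KO 1 to 5. KO 2 stood alone above the WT range and the other KO libraries lay within it. On the log2 scale KO minus WT was 0.32 (SE 0.37, 95% interval -0.48 to 1.12, edgeR adjusted p = 0.59). Without KO 2 it was -0.10, so that library sets the sign, and it was 0.18 and 0.17 without WT 1 and WT 2. The fourth gene of the family, Egr4, had 0 counts in every library.

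The Nr4a receptors did not pass either. Nr4a1 held 1.20, 1.94, 1.57, 2.87 and 1.64 CPM in WT 1 to 5, and 1.41, 2.89, 2.72, 1.503 and 2.44 CPM in KO 1 to 5. WT 4 and KO 2 were nearly level at the top, and the groups overlapped over most of their range. KO minus WT was 0.25 on the log2 scale (SE 0.26, 95% interval -0.32 to 0.82, edgeR adjusted p = 0.56). That value moved with single libraries, to 0.13 without WT 1 or KO 2, 0.16 without KO 3, 0.37 without KO 1 and 0.47 without WT 4.

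Nr4a2, the steadiest of the 3 receptors in WT, held 2.62, 2.64, 2.71, 2.49 and 2.19 CPM in WT 1 to 5. In KO 1 to 5 it held 2.36, 3.12, 2.52, 2.58 and 3.41 CPM, with KO 2 and KO 5 above the WT maximum. Its log2 fold change was 0.15 (SE 0.13, 95% interval -0.14 to 0.43, edgeR adjusted p = 0.47), and 0.068 without KO 5. Nr4a3 held 0.136 to 0.314 CPM in WT (median 0.257) and 0.189 to 0.239 CPM in KO (median 0.215). All KO libraries lay within the WT range, and its log2 fold change was -0.24 (SE 0.26, 95% interval -0.81 to 0.33, edgeR adjusted p = 0.57). Without WT 1 it was -0.37 and without WT 4 -0.14.

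Ier2 and Ier3 differed in sign, and neither passed. Ier2 held 5.97, 7.33, 6.19, 8.57 and 6.22 CPM in WT 1 to 5, and 8.46, 7.90, 6.39, 7.43 and 9.31 CPM in KO 1 to 5. Its log2 fold change was 0.20 (SE 0.13, 95% interval -0.07 to 0.48, edgeR adjusted p = 0.30). Ier3 held 44.4, 43.7, 53.9, 63.6 and 54.5 CPM in WT 1 to 5. In KO 1 to 5 it held 37.2, 39.4, 35.98, 36.5 and 55.9 CPM. KO 1 to KO 4 all lay below the WT minimum, and KO 5 lay among the higher WT libraries. The log2 fold change was -0.34 (SE 0.14, 95% interval -0.64 to -0.05), which did not pass (edgeR adjusted p = 0.11). Without KO 5, the library with the most epithelial transcripts, it was -0.48 (edgeR adjusted p = 0.0107), so the call turns on that library.

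Klf4 had the largest fold change of the 10 genes and the most uneven KO libraries. It held 6.65, 8.36, 9.88, 7.63 and 7.39 CPM in WT 1 to 5. In KO 1 to 5 it held 17.0, 12.7, 7.30, 5.45 and 31.9 CPM. KO 1, KO 2 and KO 5 were above every WT library, while KO 3 lay within the WT range and KO 4 below it. The log2 fold change was 0.90 (SE 0.38, 95% interval 0.07 to 1.73), which did not pass (edgeR adjusted p = 0.13), and without KO 5 it was 0.42.

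The 3 KO libraries high in Klf4 are those high in epithelial transcripts. The 13 epithelial markers summed to 1867 CPM in KO 1, 595 in KO 2, 76.6 in KO 3, 241 in KO 4 and 3550 in KO 5, and 9 of the 13 rose. Keratin genes of the corneal epithelium were among the most uneven, such as Krt12 at 2.87 CPM in KO 3 and 1693 CPM in KO 5. With only KO 3 and KO 4 kept, the Klf4 log2 fold change was -0.32 (edgeR adjusted p = 0.31). With the mean of the epithelial markers as a covariate it was -0.09 (edgeR adjusted p = 0.90).

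**Figure D2:**
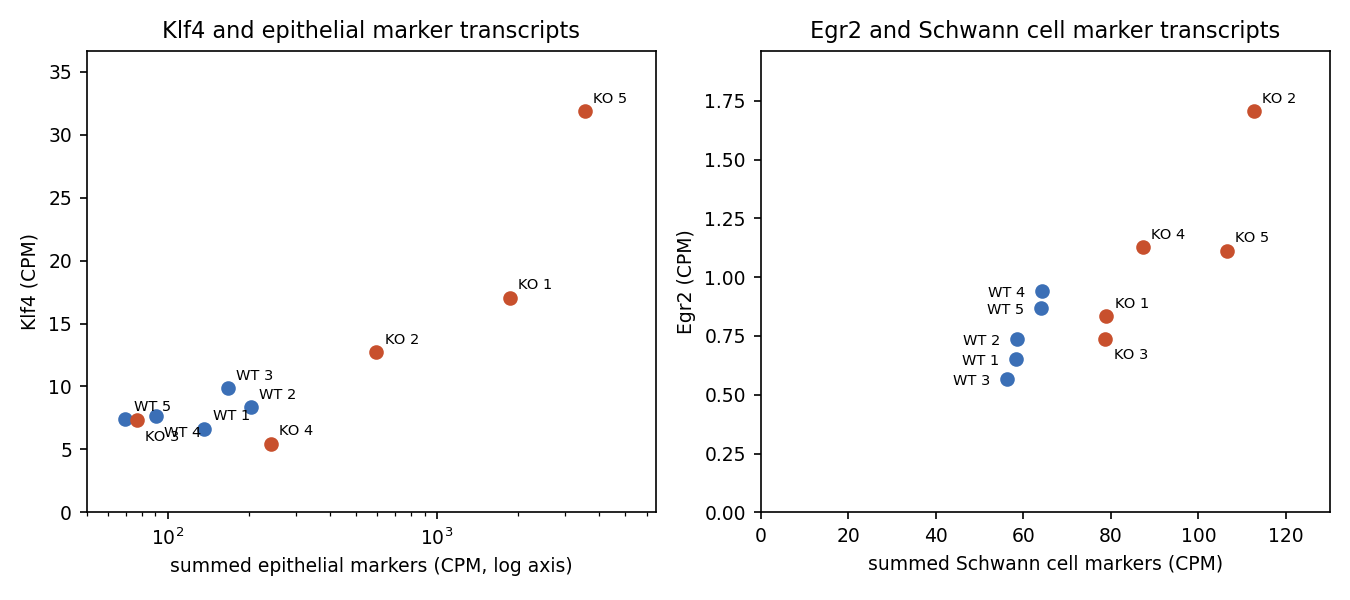
Left, Klf4 against the summed CPM of 13 epithelial markers (log axis); right, Egr2 against the summed CPM of 5 Schwann cell markers; each point is a library, blue for WT and red for KO. KO 5 is highest on both left axes (31.9 and 3550 CPM), and KO 2 on both right axes (1.71 and 113 CPM).

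**Figure D3:**
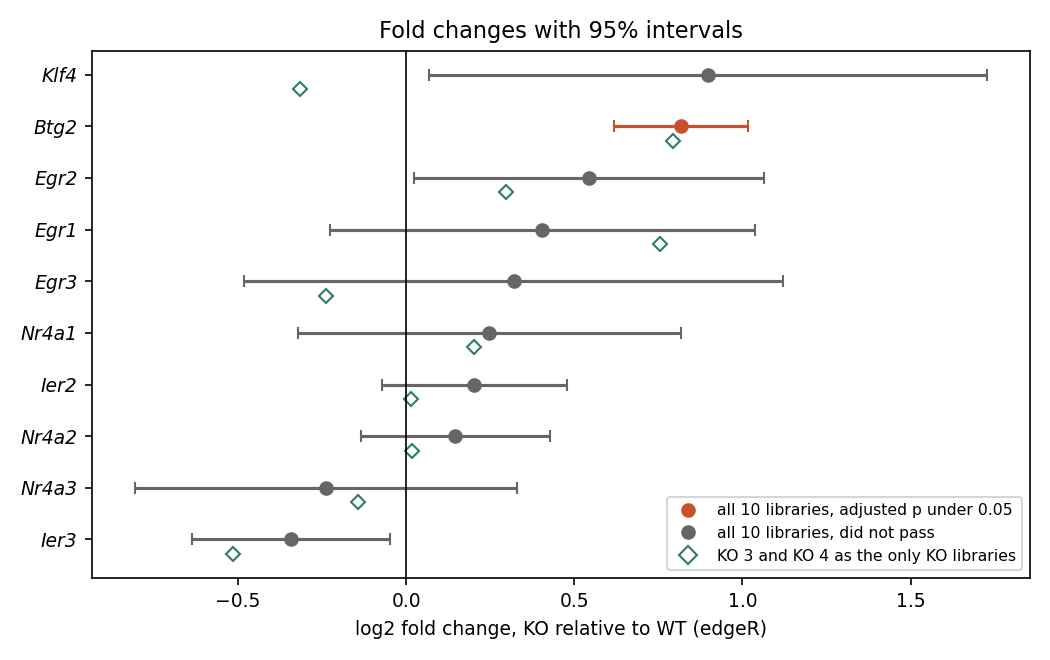
Log2 fold change of each gene in KO relative to WT with its 95% interval from edgeR (circles, all 10 libraries), beside the value from the fit that keeps only KO 3 and KO 4 of that genotype (diamonds). Btg2 keeps nearly the same value in both (0.82 and 0.79), while Klf4 goes from 0.90 to -0.32 and Egr1 from 0.40 to 0.76.

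The median spread between libraries of 1 genotype was larger for the 10 genes than for all tested genes. The median coefficient of variation of the 10 was 18.1% in WT and 26.0% in KO, against 10.6% and 11.1% over all tested genes. These coefficients include counting noise, which is large for genes with few reads such as Nr4a3, Egr3 and Egr2, and genes were not matched for level. The biological coefficient of variation fitted by edgeR was above the median of all tested genes (12.8%) for 9 of the 10, all but Btg2 at 10.98%. It was 41.2% for Klf4, 38.9% for Egr3, 32.4% for Egr1, 29.3% for Nr4a1 and 24.8% for Egr2. WT 4 was the highest WT library for 6 of the genes (Egr2, Egr3, Nr4a1, Nr4a3, Ier2 and Ier3), and WT 1 the lowest for 5. In KO no library led for most of the genes: KO 5 was highest for 4 and KO 2 for 3.

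The tested genes with the most similar profiles were found by the root mean square difference of log2 CPM over the 10 libraries, each gene centred on its own mean. Among the nearest to Btg2 were Ptpre and Plk5, at 0.12 and 0.14. Nearest to Egr2 were Cilp2, Gas7 and Lgi4, at 0.12, 0.14 and 0.16. Lgi4 encodes a secreted protein needed for myelination by Schwann cells. Nearest to Klf4 were Prc1, Casz1 and N4bp3, at 0.21 to 0.22. For Egr1 the nearest genes, Rasgef1c, 5830454E08Rik and Gm6621, were farther off at 0.26 to 0.31, and none of the neighbours of the 10 genes was another of the 10.

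Other immediate early genes changed in part. Of 48 further genes of the class, 45 were tested, of which 9 rose, 3 fell and 33 did not pass. The shares were 20% and 6.67%, beside 7.59% and 7.73% of all tested genes, and the median log2 fold change was 0.09. This list was written with earlier results of these data known, so its shares cannot test whether the class rose more often than other genes. Arl4d, a small GTPase of the ARF family, held 24.1 to 27.0 CPM in WT and 50.1 to 73.1 CPM in KO (log2 fold change 1.12, SE 0.09, edgeR adjusted p = 1.7e-05). Jun, a subunit of the AP-1 factor, held 10.1 to 17.4 CPM in WT and 19.5 to 33.8 CPM in KO (1.01, SE 0.18, edgeR adjusted p = 0.0032). Atf3, a stress-induced partner of Jun, held 0.461 to 0.648 CPM in WT and 0.780 to 1.29 CPM in KO (1.00, SE 0.19, edgeR adjusted p = 0.0046). The groups did not overlap for any of these 3, which were picked by smallest p. All KO libraries lay above all WT libraries for 6 of the 45 genes, beside 5.88% of all tested genes. KO 3 and KO 4 alone gave 1.30, 1.30 and 1.13 for Arl4d, Jun and Atf3. Of the 9 genes that rose, only 5 were also called in that fit: Arl4d, Jun, Atf3, Jund and Gadd45b. The same 5 were called with the epithelial covariate. Jun overlaps the tested antisense gene Junos, and a strand setting was not given in the sources used here. Ccn2 likewise overlaps a tested transcript, Gm15270.

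The 3 further genes that fell were Csrnp1, a nuclear protein, Noct, a phosphatase with daily rhythm, and Per1, a repressor of the circadian clock. Their log2 fold changes were -0.25 (SE 0.06), -0.60 (SE 0.15) and -0.65 (SE 0.17), with edgeR adjusted p of 0.016, 0.0174 and 0.0244. With KO 3 and KO 4 alone none of the 3 passed (edgeR adjusted p of 0.14, 0.25 and 0.32), nor did any with the epithelial covariate (0.10, 0.11 and 0.22). Csrnp1 was about as large there, at -0.23 and -0.24, while Noct was at -0.40 and -0.51 and Per1 at -0.38 and -0.44. Per1 was also not called without any 1 of WT 3, WT 4, WT 5, KO 1, KO 2 or KO 5 (edgeR adjusted p of 0.0505 to 0.0653). The most abundant of the class per length were Ccn1 and Ccn2, secreted matricellular proteins, at 158 and 73.3 RPKM in WT. Neither passed, at 0.35 (edgeR adjusted p = 0.19) and -0.04 (edgeR adjusted p = 0.91). With KO 3 and KO 4 alone Ccn1 was called higher at 0.70 (edgeR adjusted p = 0.019).

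**Figure D4:**
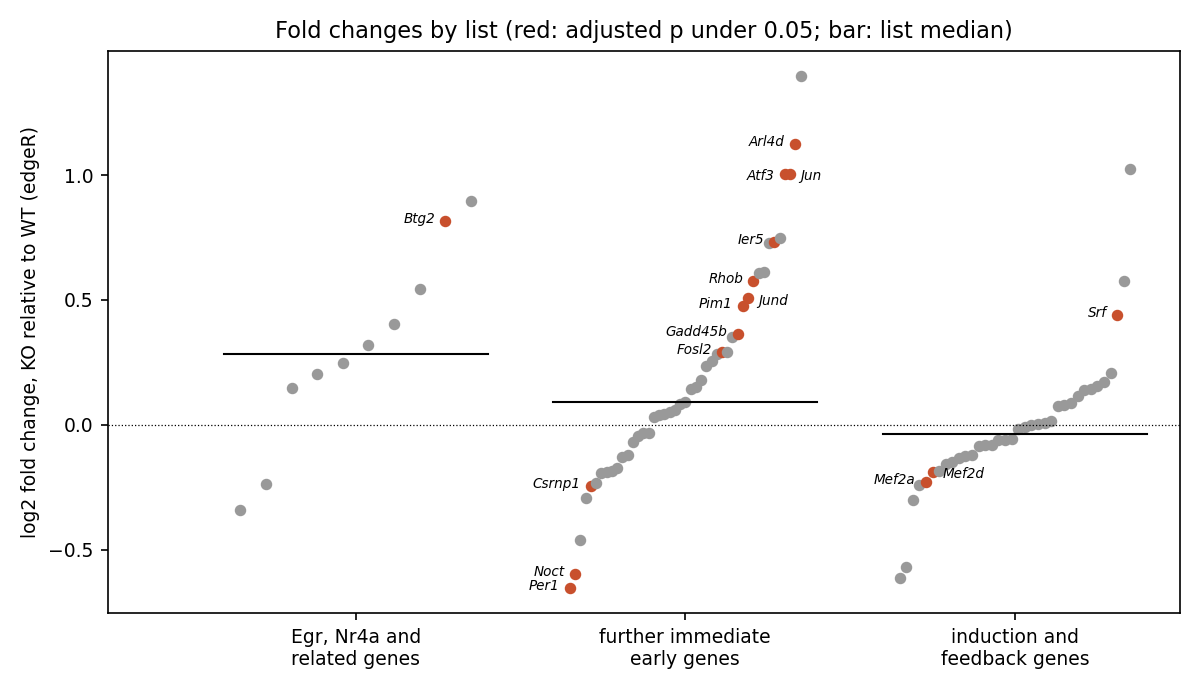
Log2 fold change in KO relative to WT of the 10 genes, of 45 further immediate early genes and of 36 genes of their induction and feedback; genes with an edgeR adjusted p under 0.05 are red and named, and bars mark the medians (0.28, 0.09 and -0.04). Btg2 is the named gene of the first list, 12 genes are named in the second and 3 in the third.

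The genes that induce the class and feed back on it went both ways, and few passed. Of 37 such genes, 36 were tested, of which 1 rose, 2 fell and 33 did not pass (2.78% and 5.56%), with a median of -0.04. At an unadjusted edgeR p under 0.05, 5 of the 36 were higher and 8 lower, beside 2732 and 2783 of all 17729 tested genes. Values ran from -0.61 for the phosphatase gene Dusp4 (edgeR adjusted p = 0.061) to 1.02 for Dusp5 (edgeR adjusted p = 0.17). Srf, which encodes the serum response factor, averaged 20.4 ± 1.65 CPM across WT libraries and 27.6 ± 5.41 across KO libraries (SD, n = 5). Its log2 fold change was 0.44 (SE 0.12, edgeR adjusted p = 0.0285), and it was not called without any 1 of WT 1, WT 3, WT 4, WT 5, KO 1 or KO 4 (edgeR adjusted p of 0.0518 to 0.0669). The fit with KO 3 and KO 4 alone called Srf higher at 0.68 (edgeR adjusted p = 0.0022). Mef2a and Mef2d, transcription factors that act with calcium signals, fell by 0.23 (SE 0.06, edgeR adjusted p = 0.0289) and 0.19 (SE 0.05, edgeR adjusted p = 0.0294) on the log2 scale. Neither was called with libraries scaled to total counts (edgeR adjusted p of 0.0716 and 0.104), with the epithelial covariate (0.21 and 0.16) or with KO 3 and KO 4 alone (0.23 and 0.32). In those 3 fits Mef2a was at -0.21, -0.18 and -0.19, and Mef2d at -0.16, -0.18 and -0.14, so both kept most of their size. Mef2a was also lost without WT 3, WT 5, KO 1, KO 4 or KO 5 (edgeR adjusted p of 0.0548 to 0.0677), and Mef2d without any 1 of WT 2, WT 3, WT 4, WT 5, KO 1, KO 2 or KO 5 (0.0548 to 0.0781). Exons of both run over those of a tested antisense neighbour, 1700113A16Rik for Mef2d and Lysmd4 for Mef2a.

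The kinases Map2k1 and Mapk3, the most abundant of these genes per length at 62.6 and 61.0 RPKM in WT, did not pass. Map2k1 was at -0.12 (edgeR adjusted p = 0.13) and Mapk3 at -0.02 (edgeR adjusted p = 0.92). Nab1 and Nab2, corepressors that bind the Egr factors, were at -0.06 (95% interval -0.18 to 0.05) and 0.00 (95% interval -0.13 to 0.13), both with narrow intervals beside those of the Egr genes. Nab2 shares exon sequence with Stat6 and Nemp1 on the opposite strand.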

How the data were processed

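Messenger RNA of 10 pools of corneal endothelial peelings (5 WT, 5 KO, grouped by title) was measured. Per the labels' protocols, 100 ng of RNA with an integrity number over 7 went into stranded polyA libraries with 12 PCR cycles, read in pairs on a 75-cycle module. The authors deposited raw read counts per gene. Tools listed in the submitters' processing notes are HISAT2 2.1.0, Trim Galore 0.6.4, cutadapt 2.4 and featureCounts of Subread 1.6.4, with the build GRCm38.p6. How strand and multi-mapping reads were handled was not given in the sources used here. All 55450 gene IDs matched GENCODE M21.

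Genes passing filterByExpr (minimum count 10, total 15; 17729 genes, at least 99.92% of counts) were TMM-scaled and tested KO against WT with the quasi-likelihood F test of edgeR 4.0.16 (R 4.3.3), checked on simulated data. SE and 95% intervals come from that model. CPM uses TMM-scaled library sizes, and RPKM divides it by merged exon length. Alternatives used DESeq2 1.42.0, limma 3.58.1, other scalings, filters, covariates and left-out libraries. Reads carry no molecular identifiers, so counts are not independent molecules. No 2 libraries of a group held the same values within sampling noise (chi-square over its degrees of freedom was 14.4 to 86.3). Nothing in the labels says more of how pools were formed, so p-values measure the spread between pools.

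The genes and lists were chosen with earlier results of these data known. Named genes were the 10 genes, Slc4a11, the 3 called genes of smallest p in each direction and the 2 most abundant per length of each list, and the 3 nearest profiles; others were named after their values were seen. Some genes that these rules pick are not reported here. Older symbols (Cyr61, Ctgf, Mkl1, Mkl2) were read as Ccn1, Ccn2, Mrtfa and Mrtfb. Over all libraries, marker lists of macrophages and other leukocytes summed to 260 to 520 CPM and pigment cells to 2.97 to 16.4 CPM.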

Additional observations from a re-analysis of the deposited data

Results flagged for a closer look

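In 2 of 20 groups examined (10 genes in 2 genotypes), 1 library lay far from the other 4, with a gap to its nearest neighbour larger than Dixon's 95% critical value for the share of the range. Chance alone gives this in about 1 in 20 groups. Egr3 in KO 2 was at 1.79 CPM, with the next KO library at 0.853 CPM. KO 2 also held the most marker transcripts of Schwann cells and of macrophages and other leukocytes. Ier3 in KO 5 was at 55.9 CPM, with the next KO library at 39.4 CPM, and KO 5 also held the most epithelial marker transcripts. The part of those transcripts in either value was not tested.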

How the results depend on the processing

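Btg2 was called higher in all 21 alternatives, with log2 fold changes of 0.76 to 1.01, and it was the only one of the 10 genes called higher in each. Ier3 was called lower without KO 5, so 0 to 1 of the 10 genes was lower when 1 library was left out, and 1 was higher in each such fit. Replicate numbers did not pair the libraries (same-numbered deviations correlated at -0.416 to 0.085), and no library of either genotype correlated best with its own number. With the replicate block 750 genes rose, Srf was lost and 0 induction and feedback genes passed in either direction. Over all genes, leaving out 1 library gave 836 to 1532 rises and 965 to 1666 falls. The further immediate early genes then had 7 to 12 rises and 2 to 4 falls, and induction and feedback genes 0 to 3 rises and 0 to 4 falls. The fit with KO 3 and KO 4 gave 527 rises and 578 falls over all genes. It gave 8 rises and 0 falls among the further immediate early genes, and 5 of the 8 were among the 9 of the main fit. Among the induction and feedback genes it gave 2 rises and 0 falls. It tests fewer samples. The epithelial covariate gave 535 rises and 648 falls, with 5 rises and 0 falls among the further genes and 0 falls among the induction and feedback genes. Falls in that last list were 0 with total counts, 4 with DESeq2 and 1 without a filter on low counts. With total counts 1555 genes rose and 1054 fell.

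The Schwann cell marker covariate was added after the data had been seen, and since it separates the genotypes it takes up much of their difference: 108 genes rose and 174 fell. Among the further genes 1 rose and 0 fell, and 0 induction and feedback genes fell. Egr2 (-0.51), Egr3 (-1.03), Nr4a1 (-0.41), Nr4a2 (-0.11), Ier2 (-0.17), Sox10 (-0.56) and Ccn2 (0.055) changed sign there. KO 3 and KO 4 alone turned Egr3 (-0.24), Klf4 (-0.32), Klf5 (-0.19) and Ccn2 (0.35), and the epithelial covariate turned Klf4 (-0.086), Klf5 (-0.38) and Ccn2 (0.13). Leaving out 1 library turned Egr3 (without KO 2; range -0.098 to 0.46), Ccn2 (without WT 2, KO 1 or KO 2; -0.31 to 0.063) and Mapk3 (without WT 1; -0.069 to 0.054), and total counts turned Mapk3 (0.015). None of these reversed values passed, and the cause was not tested. Nr4a3, Egr2 and Egr3 rest on the fewest reads, and the spread between pools is in every interval given.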

Other observations

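The paralogs of the 10 genes were looked at by family, after values had been seen. Over all tested genes 7.59% were higher and 7.73% lower. In the Btg and Tob family of antiproliferative proteins, 5 of 6 genes were tested. Btg2 rose, and Btg1, Btg3, Tob1 and Tob2 did not pass, at 0.15, -0.11, 0.12 and -0.04 on the log2 scale (edgeR adjusted p of 0.30 to 0.77). In the Ier family Ier5, a regulator of heat shock factor activity, had means of 6.66 ± 0.776 CPM (WT) and 11.1 ± 2.61 CPM (KO) and rose (SD, n = 5; log2 fold change 0.73, edgeR adjusted p = 0.0085). With only KO 3 and KO 4 kept, Ier5 was at 0.39 and not called (edgeR adjusted p = 0.16).

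Of 17 Klf genes 14 were tested, and Klf11, Klf12 and Klf15 fell, beside 7.73% of all tested genes. Klf12 averaged 6.02 ± 0.691 CPM across WT libraries and 3.07 ± 1.001 across KO libraries (SD, n = 5). Its log2 fold change was -0.97 (SE 0.20, edgeR adjusted p = 0.0072). All KO libraries lay below all WT libraries for Klf12 and Klf11, which holds for 6.16% of tested genes. Klf11 fell by 0.54 (SE 0.10, edgeR adjusted p = 0.0036) and Klf15 by 0.32 (SE 0.09, edgeR adjusted p = 0.034) on the log2 scale. With KO 3 and KO 4 alone Klf11 was at -0.62 (edgeR adjusted p = 0.0237), while Klf12 (edgeR adjusted p = 0.0532) and Klf15 (edgeR adjusted p = 0.23) were not called. Klf15 was also not called with total counts alone (edgeR adjusted p = 0.098), with the epithelial covariate (0.13) or without any 1 of WT 2, WT 3, WT 5, KO 1, KO 2 or KO 4 (edgeR adjusted p of 0.0542 to 0.0838). Klf5, like Klf4 a factor of corneal epithelium, averaged 1.05 ± 0.658 CPM across WT libraries and 5.51 ± 5.15 across KO libraries (SD, n = 5; log2 fold change 2.396, edgeR adjusted p = 0.0503), and at -0.19 with KO 3 and KO 4 alone. It was called higher in 6 of 21 alternatives, among them DESeq2 (adjusted p = 0.026) and the fit without KO 3 (edgeR adjusted p = 0.0108).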
